A study of Mus musculus with 9 samples.

Results

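The proteasome is the large barrel-shaped protease that degrades ubiquitin-tagged proteins, and its constitutive subunits were followed here in motor neurons of wild-type and SOD1-mutant mice and in whole spinal cord. The members are the probe sets that the array's annotation gives to a single gene whose symbol is Psma, Psmb, Psmc or Psmd followed by a number, without the inducible core subunits Psmb8, Psmb9 and Psmb10. They come to 74 of 45037 probe sets and to 36 of 18193 genes. The core particle (Psma and Psmb) has 16 genes on 30 probe sets, and the regulatory particle (Psmc and Psmd) has 20 genes on 44. Expression was read on Affymetrix whole-genome mouse oligonucleotide arrays in 3 groups of 3 arrays: motor neurons taken by laser capture from SOD1-mutant mice, motor neurons taken by laser capture from wild-type (WT) mice, and total spinal cord of WT mice. In laser capture, cells picked under a microscope are cut or lifted from a section, and SOD1 encodes a superoxide dismutase that is mutated in some families with amyotrophic lateral sclerosis, a disease in which motor neurons are lost. There was no cord from mutant mice among the 9 arrays. The mutant allele, the strain, the age, the way the neurons were recognised and whether arrays share an animal are not stated in the labels, so p-values measure only how much these arrays differ, part of which may be technical. The source field calls all 9 samples ventral spinal cord, while the descriptions of the tissue samples say total cord.

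The core particle is a stack of 4 rings, with outer alpha rings of Psma subunits that gate the chamber and inner beta rings of Psmb subunits, of which Psmb5, Psmb6 and Psmb7 carry the chymotrypsin-like, caspase-like and trypsin-like active sites. The regulatory particle caps the core. Its base of Psmc ATPases unfolds substrates, Psmd4 and other base subunits bind ubiquitin, and its lid removes the ubiquitin chain through the metalloprotease Psmd14. Several names in the Psmd series (Psmd5, Psmd9 and Psmd10) belong to chaperones that help to build the base and leave the finished particle. Motor neurons depend on this machinery: mice that lack the base ATPase Psmc4 in motor neurons lose these cells, and aggregates that stain for ubiquitin are a hallmark of the disease in cord.

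Every array had been scaled to the same mean before deposit, and the median signal was 274 to 366 in SOD1-mutant motor neurons, 269 to 313 in WT motor neurons and 556 to 582 in cord. The background level, the 95th percentile of bacterial control probe sets, was 157 to 244 in SOD1-mutant motor neurons, 131 to 147 in WT motor neurons and 135 to 173 in cord. On the log2 scale, the ratio of the 3′ to the 5′ probe set of Gapdh was 4.49 ± 0.15 in SOD1-mutant motor neurons, 4.03 ± 0.44 in WT motor neurons and -0.28 ± 0.01 in cord (SD, n = 3 each; both captured groups against cord, exact permutation p = 0.1, the smallest that 3 against 3 arrays allow; mutant against WT motor neurons, exact permutation p = 0.2). The summed signal of 8 motor neuron markers was 177717 to 182080 in SOD1-mutant and 195771 to 211019 in WT motor neurons, against 14850 to 21334 in cord. That of 7 astrocyte markers was 51755 to 60838 in SOD1-mutant and 23573 to 37873 in WT motor neurons, against 223762 to 238734 in cord. That of 7 oligodendrocyte markers was 293121 to 320108 in SOD1-mutant and 251696 to 263510 in WT motor neurons, against 509701 to 602444 in cord. That of 8 microglial markers was 8797 to 10263 in SOD1-mutant motor neurons, where 5 to 6 of the 8 were above background on an array, and 6798 to 7163 in WT motor neurons, where 4 to 6 were, against 65074 to 70042 in cord. Sod1 itself averaged 112348 in SOD1-mutant motor neurons and 99912 in WT motor neurons (log2 change 0.14 ± 0.16 (SE), adjusted p = 0.698). Since the allele is not known, this probe set does not check the genotype labels.

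Promoter sequence from RefSeq (assembly GRCm38.p6) was at hand for 29 of the 36 genes, and the 250 bases before each annotated start were searched on both strands for 17 short strings, counting a gene with several starts if any window held the string. Members without an entry were Psma8, Psmb1, Psmb2, Psmb7, Psmc3, Psmd3 and Psmd7. The string TGACNNNGC, the core of the antioxidant response element through which Nfe2l1 and its relatives act on proteasome genes, was present in 5 of 29 promoters (Psmb5, Psmb6, Psmc6, Psmd9 and Psmd12), 17.2% against 11.5% of the 27025 genes with a promoter. CCGGAAG, a core of the ETS family, was present in 9 of 29 (Psma6, Psmc1, Psmc2, Psmc6, Psmd2, Psmd4, Psmd6, Psmd11 and Psmd12), 31.0% against 7.83%. CCAAT, the box bound by NF-Y, was present in 12 of 29, 41.4% against 37.5%. Promoters of 5 genes are shown. Psmb3 had the largest rise of all members, Psmb5 and Psmb6 are the active-site subunits that were higher in captured neurons than in cord, and the ATPases Psmc2 and Psmc5 were higher and lower than in cord. Capitals mark the 3 strings just named, on either strand, and these strings were picked from the 17 after their counts were seen.

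Psmb3, chr11:97703184-97703433, + strand: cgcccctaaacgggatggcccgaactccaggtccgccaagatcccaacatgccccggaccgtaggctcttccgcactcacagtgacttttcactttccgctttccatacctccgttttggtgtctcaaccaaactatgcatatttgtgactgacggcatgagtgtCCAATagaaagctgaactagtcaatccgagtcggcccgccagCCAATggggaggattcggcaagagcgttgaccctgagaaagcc

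Psmb5, chr14:54617996-54618245, - strand: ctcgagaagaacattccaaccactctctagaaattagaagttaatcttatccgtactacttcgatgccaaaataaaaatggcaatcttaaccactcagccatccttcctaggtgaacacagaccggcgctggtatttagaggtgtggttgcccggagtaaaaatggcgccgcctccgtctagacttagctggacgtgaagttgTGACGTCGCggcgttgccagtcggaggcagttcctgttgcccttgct

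Psmb6, chr11:70525107-70525356, + strand: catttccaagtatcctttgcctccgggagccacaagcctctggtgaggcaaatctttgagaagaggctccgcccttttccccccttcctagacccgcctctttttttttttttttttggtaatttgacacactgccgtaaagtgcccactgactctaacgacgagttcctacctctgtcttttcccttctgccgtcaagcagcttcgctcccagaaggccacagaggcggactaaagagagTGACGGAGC

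Psmc2, chr5:21785025-21785274, + strand, the upstream of its 2 annotated starts: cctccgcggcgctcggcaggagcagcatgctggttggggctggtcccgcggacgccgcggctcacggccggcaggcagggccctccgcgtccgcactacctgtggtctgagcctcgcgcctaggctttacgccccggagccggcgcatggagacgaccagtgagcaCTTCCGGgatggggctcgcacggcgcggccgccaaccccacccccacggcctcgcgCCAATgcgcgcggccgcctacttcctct

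Psmc5, chr11:106255935-106256184, + strand: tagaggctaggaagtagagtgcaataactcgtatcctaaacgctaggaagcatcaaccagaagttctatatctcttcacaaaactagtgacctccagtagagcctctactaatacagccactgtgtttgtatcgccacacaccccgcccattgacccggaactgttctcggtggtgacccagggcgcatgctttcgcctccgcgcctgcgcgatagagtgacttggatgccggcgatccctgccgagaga

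Psmb5 and Psmb6 each held 1 copy of the antioxidant core, as TGACGTCGC and TGACGGAGC, near the end of the window. Psmb3 held CCAAT in 2 places, Psmc2 held CCAAT and an ETS core on the minus strand, and the window of Psmc5 held none of the 3. Some of the other 14 strings overlap these. A looser form of the antioxidant core was TGANNNNGC (41.4% of member promoters against 38.7% of all) and a stricter form TGACTCAGC (0% against 0.43%). Longer forms of CCAAT, written on the other strand, were ATTGGC (27.6% against 15.3%) and GATTGGC (6.90% against 7.30%). A longer form of the ETS core was CCGGAAGTG (6.90% against 1.60%), and TTCCGGC (20.7% against 4.25%) shares TTCCGG with its other strand. Strings of other factors were TGACGT (13.8% against 7.29%) and TGACGTCA (0% against 1.77%) of the CREB family, GGGCGG (58.6% against 35.4%) of Sp1, TATAAA (10.3% against 14.3%), CACGTG (6.90% against 6.86%), CGCATGCG (3.45% against 1.75%) and its longer palindrome (3.45% against 0.88%) of NRF1, and GAANNTTC (3.45% against 7.73%) of heat shock factors. A string in a window is a description of its letters and was not measured as a bound site.

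Of the core particle, 14 genes were bright enough to be tested, and in WT motor neurons against WT cord 12 of them rose and 2 fell. Over all 12983 genes tested in this comparison, 31.1% were called higher and 36.1% lower, at a limma adjusted p under 0.05, each gene read from its brightest tested probe set. The median log2 change was 1.08 over the core genes and -0.10 over all genes. The members are brighter than most probe sets, and the values over all genes are not matched for brightness. With a filter at the 60th percentile of signal, 38.1% of 10207 genes were called higher and 35.6% lower, with a median of 0.03. Whether genes as bright as the members changed as much was not tested. Of the regulatory particle, all 20 genes were tested, of which 15 rose, 3 fell and 2 did not pass, with a median log2 change of 0.80. In such bulk samples a smaller share of cells of one type and less RNA per cell cannot be told apart, and the captured arrays also differed from cord in their 3′ to 5′ ratio, whose part in these changes was not tested.

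**Figure D1:**
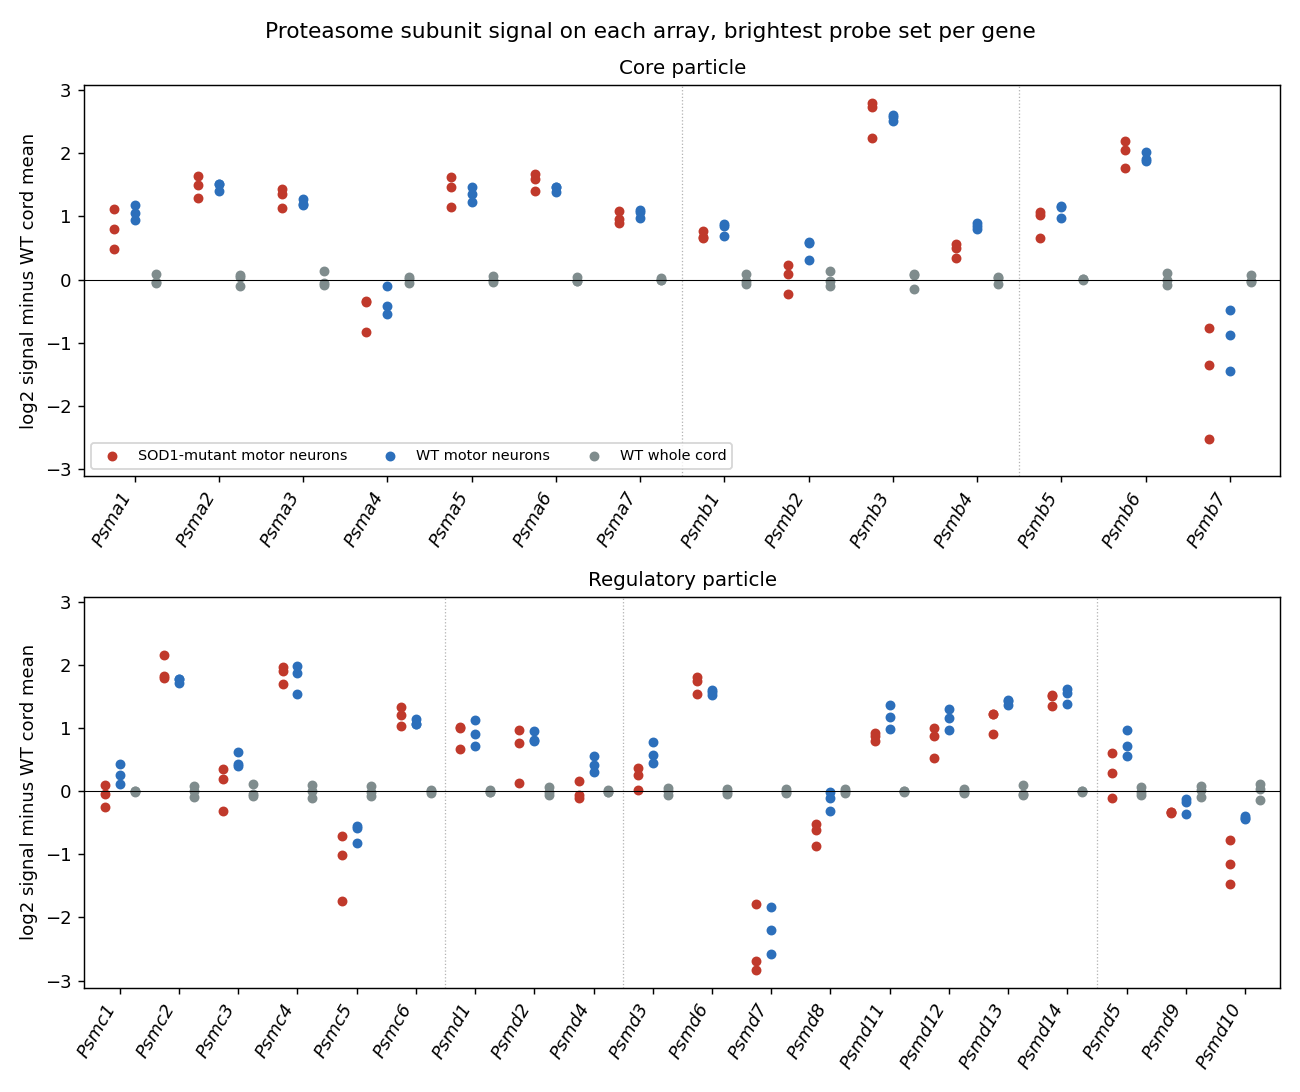
Signal of each tested subunit on each array, as log2 of the signal plus 20.3 minus the mean of the WT whole cord arrays, with 1 point per array, the 14 core genes above and the 20 regulatory genes below, in the order of their roles. Psmb3 lies highest and Psmd7 lowest, and Psmb7 has the widest spread among the captured arrays.

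In the alpha ring, 6 of 7 subunits rose in WT motor neurons. Psma2 read 58966, 74407 and 67658 in SOD1-mutant motor neurons, 63396, 68736 and 68258 in WT motor neurons and 25071, 22268 and 24659 in cord. Every captured array stood above every cord array, and the WT neurons were 2.78-fold higher than cord (log2 change 1.48 ± 0.08 (SE), adjusted p = 8.44e-07). Psma6 read 83620.5, 100922 and 95399 in SOD1-mutant motor neurons, 82497, 87254 and 86958 in WT motor neurons and 31201, 32373 and 31046 in cord, 2.71-fold higher in WT neurons (log2 change 1.44 ± 0.06, adjusted p = 4.55e-07). Psma5, Psma3 and Psma1 rose by 1.35, 1.22 and 1.06 on the log2 scale. Psma7 read 30164, 32843 and 28716 in SOD1-mutant motor neurons, 32268, 30301 and 33065 in WT motor neurons and 15638, 15272 and 15351 in cord, and rose 2.06-fold (log2 change 1.05 ± 0.07, adjusted p = 3.65e-06). Its 9 values fall into cord below and captured neurons above with no overlap.

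Psma4 was the exception in the alpha ring. It read 15672, 11167 and 15469 in SOD1-mutant motor neurons, 18572, 13545 and 14912 in WT motor neurons and 20452, 19925 and 19195 in cord, a log2 change of -0.35 ± 0.12 in WT neurons against cord (adjusted p = 0.0254). All 3 WT neuron arrays were below all 3 cord arrays, but the fall is small: it missed the threshold when any 1 of 5 arrays was left out (WT motor neuron replicate 2 or 3, or any cord array, adjusted p = 0.0531 to 0.0881), and centring each array on its median turned it to a rise of 0.60.

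The 3 active-site subunits did not move together. Psmb6, the caspase-like subunit, read 62279, 82964 and 75737 in SOD1-mutant motor neurons, 68242, 74276 and 67274 in WT motor neurons and 19465, 18080.3 and 17065 in cord. It was 3.84-fold higher in WT neurons than in cord (log2 change 1.94 ± 0.08, adjusted p = 3.32e-07), with a wide gap between the groups. Psmb5, the chymotrypsin-like subunit and the main target of proteasome inhibitor drugs, read 37424, 49652 and 48129 in SOD1-mutant motor neurons, 46309, 52348 and 52796 in WT motor neurons and 23731, 23385 and 23637 in cord, and rose 2.14-fold (log2 change 1.09 ± 0.08, adjusted p = 3.78e-06). Its 3 cord arrays lay close together, below every captured array. Psmb7, the trypsin-like subunit, read 30566, 8989.5 and 20298 in SOD1-mutant motor neurons, 37450, 19065 and 28438 in WT motor neurons and 51361, 54549.7 and 50522 in cord, and was 1.91-fold lower in WT neurons (log2 change -0.93 ± 0.20, adjusted p = 0.00351). Its captured arrays were all below cord but differed among themselves more than those of any other core gene, with a log2 SD of 0.90 in SOD1-mutant and 0.49 in WT neurons. After centring of each array on its median its change was 0.02.

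The other 4 beta subunits all rose. Psmb3 read 95822, 133840 and 140902 in SOD1-mutant motor neurons, 120807, 115342 and 123374 in WT motor neurons and 21112, 21447 and 18118 in cord. Its 5.93-fold difference between WT neurons and cord was the largest of any member (log2 change 2.57 ± 0.08, adjusted p = 1.67e-07), and no captured array came near a cord array. Psmb4, Psmb1 and Psmb2 rose by 0.85, 0.81 and 0.49 on the log2 scale (adjusted p = 7.02e-06, 3.54e-05 and 0.00348). The tissue-restricted core subunits Psma8 of testis and Psmb11 of thymus were too dim to be tested. Psma8 was above background on 1 of 9 arrays, an SOD1-mutant one, and Psmb11 on 1 SOD1-mutant and 2 WT motor neuron arrays, with no value above 211.

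In the base of the regulatory particle, 5 of 6 ATPases rose in WT motor neurons. Psmc4 read 54636, 52691 and 45327 in SOD1-mutant motor neurons, 40748, 55224 and 51598 in WT motor neurons and 13954, 13034 and 15011 in cord, and rose 3.49-fold (log2 change 1.80 ± 0.12, adjusted p = 2.99e-06). Psmc2 read 92227, 118553 and 94704 in SOD1-mutant motor neurons, 87248, 91427 and 91965 in WT motor neurons and 28189.8, 24937 and 26852 in cord, 3.39-fold higher (log2 change 1.76 ± 0.07, adjusted p = 3.32e-07). For both, the lowest captured array was well above the highest cord array. Psmc6 and Psmc3 rose by 1.09 and 0.49 on the log2 scale. Psmc1 read 20167, 17377 and 22103 in SOD1-mutant motor neurons, 27898, 22503 and 24799 in WT motor neurons and 20802, 20529.5 and 20769 in cord. The WT neurons were 1.21-fold higher than cord (log2 change 0.27 ± 0.09, adjusted p = 0.0267), a call lost without any 1 of 5 arrays (all but WT motor neuron replicate 2, adjusted p = 0.0533 to 0.0722) and with a change of -0.10 after quantile normalization.

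Psmc5 was the ATPase that fell. It read 18967, 9246 and 15293 in SOD1-mutant motor neurons, 20714, 17529 and 21199.9 in WT motor neurons and 29534, 32639.8 and 30747 in cord, 1.57-fold lower in WT neurons (log2 change -0.65 ± 0.09, adjusted p = 0.000296). Every captured array was below every cord array, and the lowest value was that of SOD1-mutant replicate 2. Centring each array on its median gave a change of 0.30 instead.

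The scaffold subunits also rose, as did the brightest probe set of the ubiquitin receptor. Psmd1 and Psmd2, the large scaffold proteins of the base, rose by 0.91 and 0.86 on the log2 scale. Psmd4, the ubiquitin receptor, read 17552, 18052 and 21009 in SOD1-mutant motor neurons, 23217, 27842 and 25167 in WT motor neurons and 18598, 19109 and 18729 in cord, and rose 1.35-fold in WT neurons (log2 change 0.43 ± 0.08, adjusted p = 0.00197). The WT neuron arrays were all above the cord arrays, whereas 2 SOD1-mutant arrays were below them and 1 was above.

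In the lid, 6 of 8 subunits rose. Psmd14, the deubiquitinase, read 71996, 64343 and 71432 in SOD1-mutant motor neurons, 74323, 65431 and 77645 in WT motor neurons and 24959, 25285 and 25044 in cord, and rose 2.88-fold (log2 change 1.53 ± 0.08, adjusted p = 8.81e-07). Psmd6 read 59296, 56932 and 48968 in SOD1-mutant motor neurons, 50291, 48550.2 and 51423 in WT motor neurons and 16795, 16463 and 17406 in cord, 2.96-fold higher (log2 change 1.57 ± 0.07, adjusted p = 4.08e-07). Psmd11, a lid subunit whose high level goes with high proteasome activity in human stem cells, read 44829, 41123 and 43253 in SOD1-mutant motor neurons, 53696, 47009.6 and 60758 in WT motor neurons and 23705, 23549.6 and 23610.2 in cord, 2.26-fold higher (log2 change 1.18 ± 0.10, adjusted p = 9.93e-06). This rise rests on the brightest probe set, of a design that may bind related transcripts: the change was 0.39 without probe sets of that design (adjusted p = 0.110) and 0.13 with the mean of its probe sets (adjusted p = 0.283), neither of which passed. In all 3 genes the captured arrays were separate from cord, and for Psmd14 and Psmd11 the 3 cord arrays lay close together. Psmd13, Psmd12 and Psmd3 rose by 1.41, 1.15 and 0.60 on the log2 scale.

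Psmd7, the structural partner of Psmd14 in the lid, went the other way. It read 3063, 1474 and 1626 in SOD1-mutant motor neurons, 2964, 1757 and 2295 in WT motor neurons and 10511, 10909.8 and 10550.4 in cord, 4.63-fold lower in WT neurons (log2 change -2.21 ± 0.17, adjusted p = 8.3e-06). All 6 captured arrays were below all 3 cord arrays, by a wide gap. Psmd8 had a log2 change of -0.14 ± 0.09 and did not pass (adjusted p = 0.218).

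The assembly chaperones of the Psmd series were mixed. Psmd5 rose by 0.75 on the log2 scale (adjusted p = 0.000446). Psmd10, or gankyrin, read 2562, 1573 and 1946 in SOD1-mutant motor neurons, 3206, 3252 and 3340 in WT motor neurons and 3968, 4459.9 and 4711 in cord, 1.34-fold lower in WT neurons (log2 change -0.42 ± 0.11, adjusted p = 0.00999). The groups stood in 3 separate steps, mutant neurons lowest and cord highest, although the WT fall against cord was lost without cord replicate 3 (adjusted p = 0.0609) and after quantile normalization, and was a rise of 0.53 after centring. Psmd9 had a log2 change of -0.22 ± 0.12 and did not pass (adjusted p = 0.137).

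**Figure D2:**
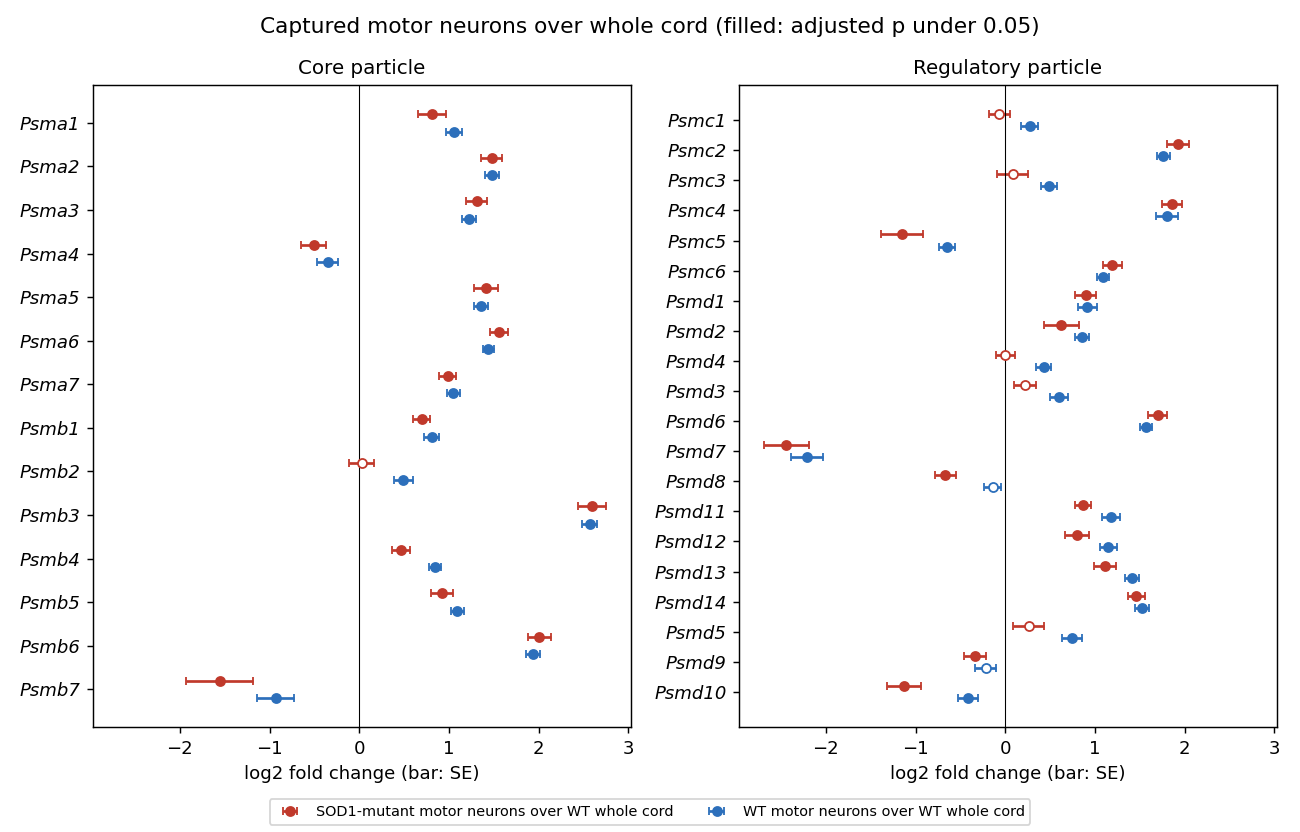
Log2 fold change of each tested subunit over WT whole cord, SOD1-mutant motor neurons above and WT motor neurons below in each pair, with the core particle left and the regulatory particle right (bars, SE; filled points, adjusted p under 0.05). In WT motor neurons 12 of 14 core and 15 of 20 regulatory genes lie to the right of 0 and are filled, and Psmd7 lies farthest left.

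How far the members rose depends on how arrays are put on one scale, since the whole distribution differs between captured neurons and cord. Under quantile normalization the median of all genes in WT neurons against cord was 0.26, with 42.2% of genes called higher and 26.1% lower, and under centring on the array median it was 0.84, with 58.2% and 14.9%. The core median lay above that of all genes by 1.17 in the deposited scale, by 0.45 after quantile normalization and by 1.19 after centring. For the regulatory particle the same distances were 0.90, 0.26 and 0.92. All 12 core genes that rose did so under all 3 scalings, as did 12 of the 15 regulatory genes (not Psmc1, Psmc3 and Psmd4). Of the 5 genes that fell, Psmd7 alone was called lower under all 3, while Psma4, Psmb7, Psmc5 and Psmd10 had positive changes after centring.

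Many subunits are read by more than 1 probe set, and these did not always move together. Of the 62 tested probe sets, 19 of 27 for the core rose and 4 fell in WT neurons against cord, and 21 of 35 for the regulatory particle rose and 7 fell, against 24.0% of all tested probe sets called higher and 41.5% lower. In 17 genes with 2 or more tested probe sets, 15 had at least 2 that passed, and in 4 of these 15 (26.7%) the probe sets passed in both directions, as they did in 34.7% of the 3722 genes of that kind on the array. For Psma3, a dim probe set fell by 1.73 on the log2 scale, with a mean signal of 245 in WT neurons and 821 in cord, while the bright one rose by 1.22. For Psma5, a dim probe set fell by 1.52 while the other 2 rose by 1.23 and 1.35. For Psmd4, both other probe sets fell, with mean signals of 2813 in WT neurons and 11176 in cord for the brighter of them. For Psmd11, 1 of 5 rose, 1 fell by 0.44 and 3 did not pass. Both probe sets of Psmd7 fell. The brightest probe sets of Psma6, Psmc2 and Psmd11 are of designs that may also bind related transcripts, and without such designs Psma6 rose by 0.71 and Psmc2 by 0.91 in WT neurons, while Psmd11 did not pass. With the mean of each gene's probe sets in place of the brightest, Psma3 and Psmd4 had negative changes, -0.25 and -1.03.

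**Figure D3:**
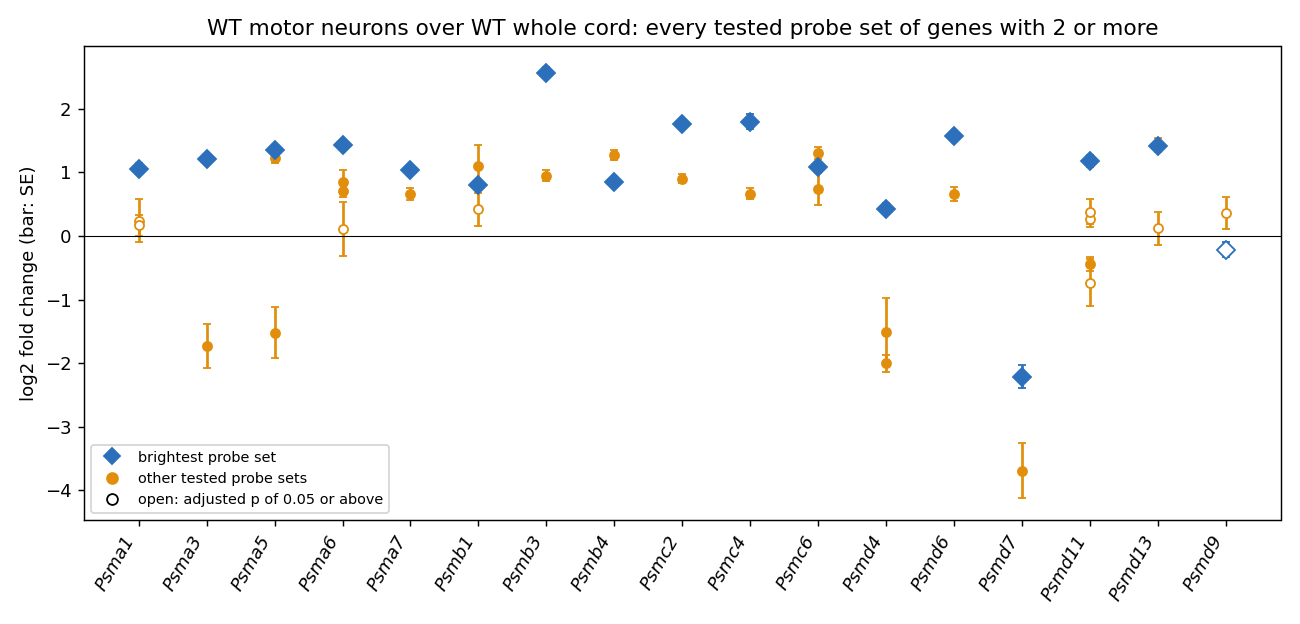
Log2 fold change in WT motor neurons over WT whole cord of every tested probe set, for the 17 subunits with 2 or more (diamonds, brightest probe set; circles, the others; bars, SE; open symbols, adjusted p of 0.05 or above). The dimmer probe set of Psma3, both dimmer ones of Psmd4 and 1 of the 2 dimmer ones of Psma5 lie below 0, while the brightest of each lies above it.

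Between SOD1-mutant and WT motor neurons, no core or regulatory gene passed the test, at a background of 0.169% of all genes called higher and 0.0847% lower. At an unadjusted p under 0.05 there were 2 of 14 core genes and 9 of 20 regulatory genes, against 16.8% of all genes tested. The median log2 change was -0.09 over the core, -0.31 over the regulatory particle and -0.01 over all genes. The median SE of these changes was 0.13 for the core and 0.15 for the regulatory genes, with 3 arrays a group. Negative changes were found in 9 of 14 core and in 16 of 20 regulatory genes, against 50.5% of all genes. In the regulatory particle 8 genes had all 3 mutant arrays below all 3 WT arrays (Psmc1, Psmc3, Psmd3, Psmd4, Psmd8, Psmd10, Psmd11 and Psmd13) and 1, Psmc2, had them above (though its other tested probe set had a change of -0.20), against 12.8% of all genes below and 11.6% above. In the core there were 2 below (Psmb2 and Psmb4) and none above. Of the genes below, the other tested probe set of Psmb4 had a change of 0.15, and the 5 of Psmd11 ranged from -0.85 to 0.29. The tested probe sets of Psmd4 and Psmd13 all had negative changes.

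**Figure D4:**
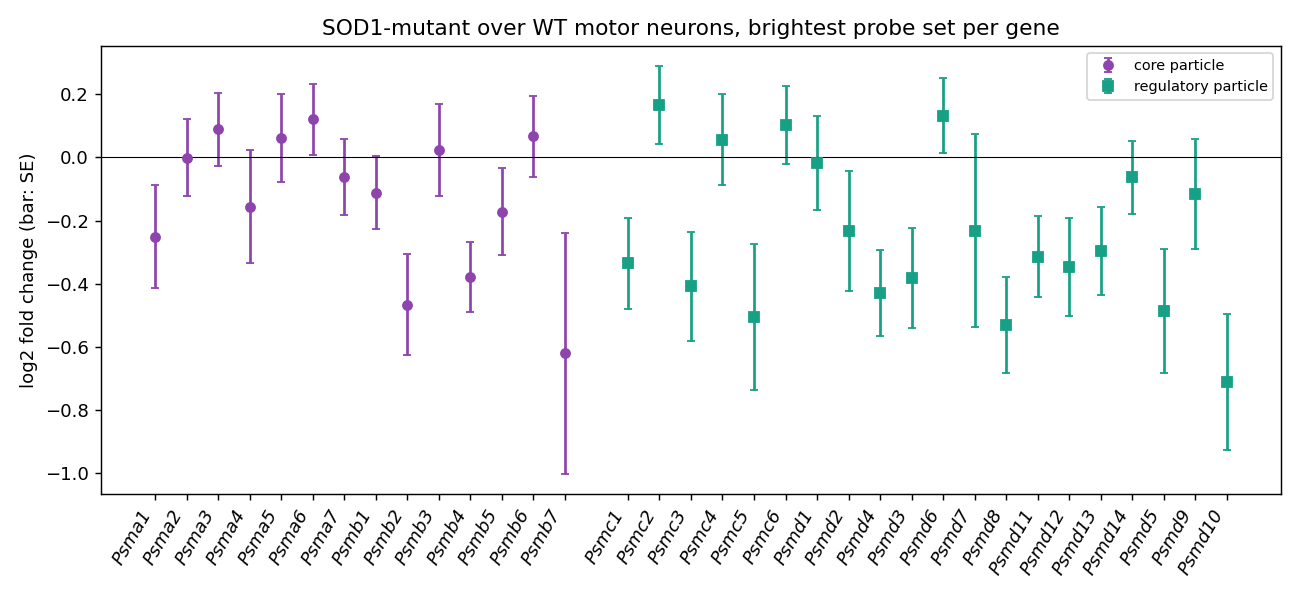
Log2 fold change of each tested subunit in SOD1-mutant over WT motor neurons, with the 14 core genes left and the 20 regulatory genes right (bars, SE). None passed at an adjusted p of 0.05, and 16 of the 20 regulatory genes lie below 0.

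Read from the brightest probe set of each gene, the members nearest the threshold were Psmd8 and Psmb4. A dimmer probe set of Psmb1, of a design that may bind related transcripts, was nearer and went the other way. Its log2 change was 1.31 ± 0.27 (adjusted p = 0.0996), with all mutant above all WT arrays, while the brightest of Psmb1 had -0.11. Psmd8, a lid subunit, read 11415, 9526 and 12118 in SOD1-mutant motor neurons and 17399, 14083 and 16202 in WT motor neurons, a log2 change of -0.53 ± 0.15 (adjusted p = 0.156). Psmb4 read 57971, 65330.5 and 67945 in SOD1-mutant and 82533, 80479 and 85144 in WT motor neurons, a log2 change of -0.38 ± 0.11 (adjusted p = 0.162). In each, the highest mutant array was below the lowest WT array, although the other tested probe set of Psmb4 had a positive change. Psmd10 had a log2 change of -0.71 ± 0.22 (adjusted p = 0.172) and Psmd4 of -0.43 ± 0.14 (adjusted p = 0.184), with separate arrays as well. Psmb2 read 10435, 14279 and 12993 in SOD1-mutant and 15089.8, 18511 and 18292 in WT motor neurons, a log2 change of -0.47 ± 0.16 (adjusted p = 0.214).

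Other members were close to 0 or varied widely among the mutant arrays. The active-site subunits Psmb5, Psmb6 and Psmb7 had log2 changes of -0.17 ± 0.14, 0.07 ± 0.13 and -0.62 ± 0.38, and Psma7, Psmc4 and Psmd14 of -0.06 ± 0.12, 0.06 ± 0.14 and -0.06 ± 0.12. For Psmb7 and Psmc5 the lowest of all arrays was SOD1-mutant replicate 2. It was the lowest of the 3 mutant arrays for 17 of 34 members, against 35.5% of all genes, and had the highest background level of the 9, whose part in these values was not tested. WT motor neuron replicate 2 was likewise the lowest of its group for 20 of 34 members, against 38.1% of all genes. Of the Psmd genes 13 of 14 had negative changes, Psmd6 being the other. Astrocyte, oligodendrocyte and microglial markers, each summed, were higher on every mutant than on every WT neuron array, and 1 of 7 astrocyte markers (Gja1) was called higher, against none of the 7 oligodendrocyte and 8 microglial markers tested. Their part in the negative changes was not tested.

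SOD1-mutant motor neurons against WT cord share their cord arrays with the first comparison and their neuron arrays with the second, so the values stand here only beside those. In the core 11 of 14 genes rose and 2 fell (median 0.95), and in the regulatory particle 10 of 20 rose and 5 fell (median 0.44), with 28.4% of all genes called higher and 35.3% lower (median -0.13). Psmb3, Psmb6, Psma6 and Psma2 had the largest rises in the core, 2.59 ± 0.16, 2.01 ± 0.13, 1.56 ± 0.10 and 1.48 ± 0.12 on the log2 scale, beside 2.57, 1.94, 1.44 and 1.48 in WT neurons. Without probe sets that may bind related transcripts, the change of Psma6 in mutant neurons was 0.39 and did not pass (adjusted p = 0.127). With the mean of each gene's probe sets, Psma1, Psma3, Psma5, Psmd9, Psmd11 and Psmd13 did not pass in mutant neurons against cord. The largest rises in the regulatory particle were those of Psmc2, Psmc4, Psmd6 and Psmd14, at 1.93 ± 0.12, 1.86 ± 0.11, 1.70 ± 0.11 and 1.46 ± 0.09, beside 1.76, 1.80, 1.57 and 1.53 in WT neurons. The falls were Psmb7 (-1.55 ± 0.37) and Psma4 (-0.51 ± 0.14, lost without cord replicate 1, adjusted p = 0.0526) in the core. In the regulatory particle they were Psmd7 (-2.44 ± 0.25), Psmc5 (-1.15 ± 0.23), Psmd10 (-1.13 ± 0.19), Psmd8 (-0.67 ± 0.12) and Psmd9 (-0.33 ± 0.12, which was lost without SOD1-mutant replicate 3 or any 1 cord array, adjusted p = 0.0682 to 0.155).

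Genes called against cord in WT but not in SOD1-mutant neurons were Psmb2, Psmc1, Psmc3, Psmd3, Psmd4 and Psmd5, with log2 changes of 0.03, -0.07, 0.08, 0.22, 0.00 and 0.26 in the mutant neurons against 0.49, 0.27, 0.49, 0.60, 0.43 and 0.75 in the WT neurons. The direct comparison of mutant with WT neurons called none of these 6. Without SOD1-mutant replicate 2, Psmc3 (0.28, adjusted p = 0.0396), Psmd3 (0.32, adjusted p = 0.0186) and Psmd5 (0.45, adjusted p = 0.0122) were called higher in mutant neurons too. After centring each array on its median all 6 were, as were 52.4% of all genes. Psmd8 and Psmd9 were called lower than in cord in mutant but not in WT neurons, and the direct comparison did not call them either. In WT neurons Psmd8 was called lower after quantile normalization (-0.42, adjusted p = 0.00286) and Psmd9 with array weights (-0.15, adjusted p = 0.0480). The estimate of those weights stopped before its convergence tolerance was reached. It gave 9.90 to WT motor neuron replicate 3 and 0.20 to replicates 1 and 2. The call of Psmd9 in mutant neurons was lost with no filter, no intensity trend or the replicate block, and its change was 0.09 after quantile normalization. After centring, both had positive changes in mutant neurons (0.22 and 0.55). The rise of Psmd2 in mutant neurons (0.62 ± 0.20, adjusted p = 0.0226) was lost without any 1 of 4 arrays (SOD1-mutant replicate 2 or 3, cord replicate 1 or 3, adjusted p = 0.0515 to 0.0876). Under all 3 scalings 9 core genes and 9 regulatory genes were called higher and Psmd7 lower. The regulatory median stood 0.57 above that of all genes in the deposited scale and 0.01 above it after quantile normalization, and that of the core 1.09 and 0.29 above it.

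Seen array by array, the median of the 14 core genes over the cord mean was 0.96 to 1.08 on the log2 scale in SOD1-mutant and 1.06 to 1.13 in WT motor neurons, and that of the 20 regulatory genes was 0.28 to 0.57 in SOD1-mutant and 0.64 to 0.88 in WT motor neurons. All genes had medians of -0.15 to -0.07 in SOD1-mutant and -0.10 to -0.06 in WT motor neurons. The regulatory medians of the mutant arrays were thus each below those of the WT arrays, while the core medians overlapped. Replicates of the members agreed most closely in cord, with a median log2 SD of 0.06 for the core and 0.05 for the regulatory genes. For the core it was 0.22 in SOD1-mutant and 0.09 in WT motor neurons, and for the regulatory genes 0.18 in SOD1-mutant and 0.14 in WT motor neurons. Over all genes it was 0.28 in SOD1-mutant motor neurons, 0.23 in WT motor neurons and 0.11 in cord.

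Other genes of the pathway, from lists that leave out the members, moved in their own ways in WT neurons against cord. Of all genes tested there, 31.1% were called higher and 36.1% lower. Of the inducible core subunits, which replace the constitutive active-site subunits in immune cells and under interferon, Psmb10 was the one bright enough to be tested, and it fell (log2 change -0.83 ± 0.12, adjusted p = 0.000259). Of 4 tested activators and inhibitors, Psme1, a subunit of the interferon-inducible cap, fell 16.2-fold to a mean signal of 341 in WT neurons, against 5784 in cord. The nuclear activators Psme4 and Psme3 rose by 1.30 and 0.97 on the log2 scale, and the inhibitor Psmf1 did not pass (0.14 ± 0.12). Of 5 assembly chaperones of the core, 4 rose (Psmg3 by 1.25, Psmg4 by 1.06, Psmg2 by 0.72, and Pomp) and Psmg1 did not pass (-0.24 ± 0.12).

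Of 4 tested partners of the regulatory particle 2 rose, against 31.1% of all genes called higher and 36.1% lower. They were the small lid subunit Sem1, by 1.12, and the adaptor Ecpas, by 0.84 on the log2 scale. The proteasome-bound deubiquitinases Usp14 and Uchl5 did not pass. Of 7 tested ubiquitin shuttle receptors and segregase subunits 4 rose, among them Ubqln4 by 1.18 and Rad23b by 0.72, 2 fell, among them Ufd1 (-0.81 ± 0.10), and Vcp, the segregase ATPase that is mutated in a form of the disease, did not pass. Of 5 transcription factors, Nfe2l1, the factor that raises proteasome genes when proteasomes are inhibited, rose by 0.75 and Maff by 1.52. Nfe2l2, its relative of the oxidative stress response, fell 5.20-fold (log2 change -2.38 ± 0.16, adjusted p = 2.91e-06), as did Mafg by 1.43 on the log2 scale, and Mafk did not pass. Uba6, an activating enzyme of ubiquitin, rose by 1.74.

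None of these pathway genes passed between SOD1-mutant and WT motor neurons. All 5 core assembly chaperones had negative log2 changes there, with a median of -0.44, and in 3 of them the mutant arrays were all below the WT arrays. Over all genes tested, 50.5% had negative changes and 12.8% had all mutant arrays below all WT arrays. Psmg2 averaged 6584 in SOD1-mutant and 10277 in WT motor neurons (-0.64 ± 0.15, adjusted p = 0.109), and Pomp averaged 31982 in SOD1-mutant and 43193 in WT motor neurons (-0.44 ± 0.13, adjusted p = 0.171). The 5 transcription factors also had negative changes (median -0.35). Among ubiquitin shuttle receptors and segregase subunits it was 6 of 7 (median -0.10), with Ubqln2, which is mutated in a form of the disease, the exception at 0.28 ± 0.16.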

How the data were processed

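RNA of 9 samples (3 groups of 3) was hybridised to single-colour arrays. The values used are linear intensity values, 1 per probe set, as the authors deposited them. The software behind them and the capture, amplification and labelling protocols were not given in the sources used here. Each array had a trimmed mean between 2491 and 2493, so a common scaling preceded deposit, and it was kept. Of 45101 probe sets 64 controls were left out. The platform annotation gives 1 gene to 34945 of the others, several to 932 and none to 9160, and only the first kind was named.

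To take log2, a pseudocount of 20.3 (10th percentile of the values) was added, so changes of dim probe sets are understated, and log2 changes are on that scale. Tests covered the 27022 probe sets whose average of the group means exceeded the 40th percentile. Each comparison was fitted to its own 6 arrays in limma 3.58.1 under R 4.3.3 (lmFit, then eBayes with trend), two-sided, Benjamini-Hochberg adjusted over all probe sets, threshold 0.05. A gene was read from its tested probe set of highest mean. Background was each array's 95th percentile of 27 Bacillus subtilis control probe sets, whose highest value was 332, and all 34 tested members exceeded it on all 9 arrays.

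The members and lists were chosen with earlier results of these data known. Every member could be named. Full statistics went to the 4 largest rises and falls past the threshold per particle and comparison and to Psmb5, Psmb6, Psmb7, Psma7, Psmc1, Psmc4, Psmd4, Psmd11 and Psmd14. From each pathway list the rule took up to 3 passing genes of largest change, or the 1 of highest mean where none passed, and others are named where a count needs them.

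Alternatives changed the scaling (quantile, or the array median set equal), the filter (none, or the 60th percentile), the pseudocount (4 times up or down), the reading of a gene (its probe sets averaged), the fit (9 arrays together, eBayes without trend, weights per array, replicate number as block) or the arrays (each left out). Raising values to background, and dropping probe sets that may bind related transcripts, were added after the data were seen. The fits were tested on simulated arrays. The number of arrays limits the precision. Control ratios were compared by exact permutation (scipy 1.17.1). Promoters came from RefSeq. Plots used matplotlib 3.10.9 and Python 3.11.15.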

Additional observations from a re-analysis of the deposited data

How the results depend on the processing

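The 12 core and 15 regulatory rises in WT motor neurons against cord stayed within 1.5 times those counts under all alternatives tried. So did the 11 core rises of SOD1-mutant motor neurons against cord. For 14 and 20 genes that band is wide, so staying in it says little. Leaving out an array gave 12 core and 14 to 15 regulatory rises in WT neurons, and 11 core rises in SOD1-mutant neurons. Called higher under all 3 scalings were 12 core and 12 regulatory genes in WT neurons and 9 core genes in SOD1-mutant neurons. With probe sets averaged, 3 of 7 alpha ring genes rose in SOD1-mutant neurons, beside 6 in the main fit. The falls depended on scaling. Centring each array on its median left 0 core and 1 regulatory gene lower in both comparisons with cord, and 16 regulatory genes higher in SOD1-mutant neurons. Under centring 58.2% of all genes were called higher and 14.9% lower in WT neurons, and 52.4% and 13.9% in SOD1-mutant neurons. In WT neurons 1 core gene was lower with all 9 arrays in 1 fit or with no intensity trend, and 1 to 2 when an array was left out, as for SOD1-mutant neurons.

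The core median in WT neurons against cord was 0.72 after quantile normalization, 2.03 after centring, 1.13 with array weights and 0.78 with each gene's probe sets averaged. The array weights were 9.90 for WT motor neuron replicate 3 and 0.20 for replicates 1 and 2, from an estimate that did not reach its convergence tolerance. The regulatory median was 0.53 after quantile normalization, 1.75 after centring, and 0.67 both with that mean and without probe sets that may bind related transcripts. The median of all genes moved with the setting. In WT neurons against cord it was 0.26 (quantile), 0.84 (centring), -0.07 (array weights), -0.32 (mean of probe sets) and -0.18 (without those probe sets). With that mean the core median thus lay 1.10 above it and the regulatory median 0.99. For SOD1-mutant neurons against cord the core median was 0.54 (quantile), 1.84 (centring), 0.86 (no filter, and without those probe sets) and 0.58 (mean of probe sets), and 0.95 to 1.02 when an array was left out. The regulatory median was 0.26 (quantile), 1.33 (centring), 0.56 (array weights) and 0.24 (mean of probe sets). In SOD1-mutant neurons against cord the median of all genes was 0.25 (quantile), 0.74 (centring), -0.09 (no filter), -0.23 (without those probe sets), -0.13 (array weights) and -0.35 (mean of probe sets). The array weights there were 4.33 for SOD1-mutant replicate 3 and 0.21 and 0.17 for replicates 1 and 2.

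Single genes changed sign as follows. After centring, in WT neurons against cord, Psma4 had a change of 0.60, Psmb7 of 0.019, Psmc5 of 0.30, Psmd8 of 0.81, Psmd9 of 0.73 and Psmd10 of 0.53, and in SOD1-mutant neurons against cord Psma4 of 0.38, Psmc1 of 0.82, Psmd8 of 0.22 and Psmd9 of 0.55. After quantile normalization Psmc1 had -0.10 in WT neurons, and Psmb4 had -0.10, Psmd4 -0.33 and Psmd9 0.090 in SOD1-mutant neurons. With the mean of probe sets Psma3 had -0.25 and Psmd4 -1.03 in WT neurons, and Psmd4 -1.38 and Psmd11 -0.21 in SOD1-mutant neurons.

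Between SOD1-mutant and WT motor neurons, all 9 arrays in 1 fit called 1 core gene (Psmb4) and 3 regulatory genes (Psmd4, Psmd8 and Psmd10) lower, with 358 genes higher and 303 lower of 12983. Array weights called 5 core genes higher and 5 lower (median 0.0060) and 1 regulatory gene higher and 12 lower, but they gave weights of 10.8 and 5.47 to replicate 3 of WT and SOD1-mutant neurons and 0.28 to 0.43 to the other arrays, and called 3222 genes higher and 3537 lower. The core median was -0.16 with the mean of probe sets. The cause of these differences was not tested.

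Replicate numbers are shared by the groups. Between SOD1-mutant and WT neurons, the deviations of same-numbered arrays had r of 0.15, 0.17 and 0.00 for numbers 1, 2 and 3. Arrays of different number had r of -0.18 to 0.06. Arrays numbered 1 and 2 thus deviated together weakly across the neuron groups, and those numbered 3 did not. The labels state no pairing, so the main fits took none, and whether same-numbered arrays share a batch was not tested. With the replicate block the counts were 12 higher and 2 lower for the core and 15 and 3 for the regulatory particle in WT neurons against cord, 11 and 2 for the core and 10 and 4 for the regulatory particle in SOD1-mutant neurons against cord, and 0 members between the neuron groups, where the block raised the calls over all genes to 147 higher and 115 lower, against 22 and 11 without it.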
